A study of Mus musculus with 15 samples.

Results

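The late programme of red cell maturation was examined through 34 named genes that act in autophagy and mitochondrial removal, ubiquitin-dependent protein removal, antioxidant defence, nuclear condensation and enucleation, or that mark the last stages of the erythroid lineage. The list named the genes, and each was represented by the transcript cluster that carries its symbol alone and has the highest mean signal. Of the 34 genes, 32 had such a cluster, out of 19938 genes with a cluster of their own in the series, and Optn and Ucp2 were not analysed here. The samples were TER119-positive cells of mouse fetal liver at stage E13.5, all on the FVB/NJ strain, purified on magnetic beads and measured on 15 Affymetrix arrays. Doubly mutant cells (Klf3-/- Klf8gt/gt, n = 4) were homozygous for a null allele of Klf3 and a gene-trap allele of Klf8, Klf3-null cells (Klf3-/-, n = 3) and Klf8-trap cells (Klf8gt/gt, n = 4) carried one of these lesions, and wild-type cells (n = 4) carried neither. No label restricts either allele to erythroid cells, and Klf8 is X-linked while Klf8gt/gt is written for male and female arrays alike. The submitters' design text states litter matching only where possible, without saying which arrays share a litter. Litters and embryos are not identified per array, and the p-values therefore reflect only differences among these arrays, some of which may be technical.

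During the last divisions of an erythroblast the chromatin condenses and the nucleus is expelled, and the resulting reticulocyte then removes its mitochondria, ribosomes and membranes. Mitochondria are engulfed by autophagosomes that recognise receptors on the outer mitochondrial membrane, while ubiquitin ligases mark proteins for the proteasome and so reshape the cell around haemoglobin. KLF3 and KLF8 are related zinc finger repressors that bind CACCC-type DNA elements through the same kind of domain as KLF1, the activator of many erythroid genes, and the 4 genotypes allow the maturation genes to be compared without one factor, without the other and without both.

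Signals are log2 values as deposited, with array medians of 6.28 to 6.41, and a difference of 1 is a 2-fold change. The means of 12 erythroid markers lay at 11.97 to 12.49 on the doubly mutant, 12.18 to 12.40 on the Klf3-null, 12.20 to 12.52 on the Klf8-trap and 12.33 to 12.54 on the wild-type arrays. Hepatocyte markers were also high, with means of 8 genes at 11.79 to 12.91 on the doubly mutant, 12.73 to 12.97 on the Klf3-null, 12.81 to 13.41 on the Klf8-trap and 12.51 to 12.84 on the wild-type arrays, so that high marker signal was not limited to the erythroid lineage. The Klf3 cluster did not check the genotype labels, because its mean signal was 11.37 in doubly mutant and 11.32 in Klf3-null cells, against 10.27 in both Klf8-trap and wild-type cells. The Klf8 cluster was at 7.29 in doubly mutant, 8.71 in Klf3-null, 5.39 in Klf8-trap and 5.36 in wild-type cells, the last 2 of which lie below the array medians. Y-linked and Xist signals placed 9 arrays as male and 6 as female. Doubly mutant replicates 1 and 2 were male and 3 and 4 female, and all 4 wild-type arrays were male. The mean correlation with the other arrays of the same group was 0.9857, 0.9897, 0.9877 and 0.9869 for doubly mutant replicates 1 to 4. In the Klf8-trap group it was 0.9884 for replicate 1 and 0.9928 to 0.9942 for the others. Replicate 1 was the lowest in both groups, and these are the arrays said below to stand apart. Doubly mutant replicates 3 and 4 were close to replicate 1 by this measure.

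In doubly mutant cells 3 maturation genes fell and 1 rose relative to wild-type cells. The ubiquitin ligase gene Trim58, the Yippee-like family gene Ypel4 and the haematopoietic nuclear protein gene Hemgn were lower, and Car1, which encodes carbonic anhydrase I, was higher. These were 4 of 32 members past an adjusted p of 0.05 in the limma fit, 3 lower and 1 higher, whereas 3.3% of the 23410 tested clusters passed in either direction, 1.78% lower and 1.52% higher. All members but Alox15 and Tnfrsf25 had group means above the array medians, and the share was larger among brighter clusters. With dim clusters left out, 857 of 11705 clusters passed, 350 higher and 507 lower. Shares given below are over all 23410 clusters, dim ones included, unless stated. Of the 32 members, 28 (87.5%) had a lower mean in doubly mutant than in wild-type cells, against 55.5% of all tested clusters, and the median difference was -0.28 for the members and -0.02 for all tested clusters. At an unadjusted p under 0.05 there were 15 members of 32 and 4179 of the 23410 clusters. Without doubly mutant replicate 1 and Klf8-trap replicate 1, 13 members passed, 2 higher and 11 lower, beside 2260 of the 23410 clusters. They were the same 4 with Bnip3, Ulk1, Gabarapl2, Becn1, Trim10, Ube2o, Fbxo7, Xpo7 and Car2. That alternative left out the doubly mutant array with the highest signal for 20 of the 32 members. It was added after the data were seen, and other alternatives lowered the count. It was 0 with the spread taken from these groups alone (295 of 23410 clusters), 1 with sex as a covariate (633 clusters), 1 between male arrays (744 clusters), and 1 without wild-type replicate 2 (403 clusters) or 3 (382 clusters). In cell populations such as these, fewer maturing cells and less RNA of these genes per cell cannot be told apart.

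**Figure D1:**
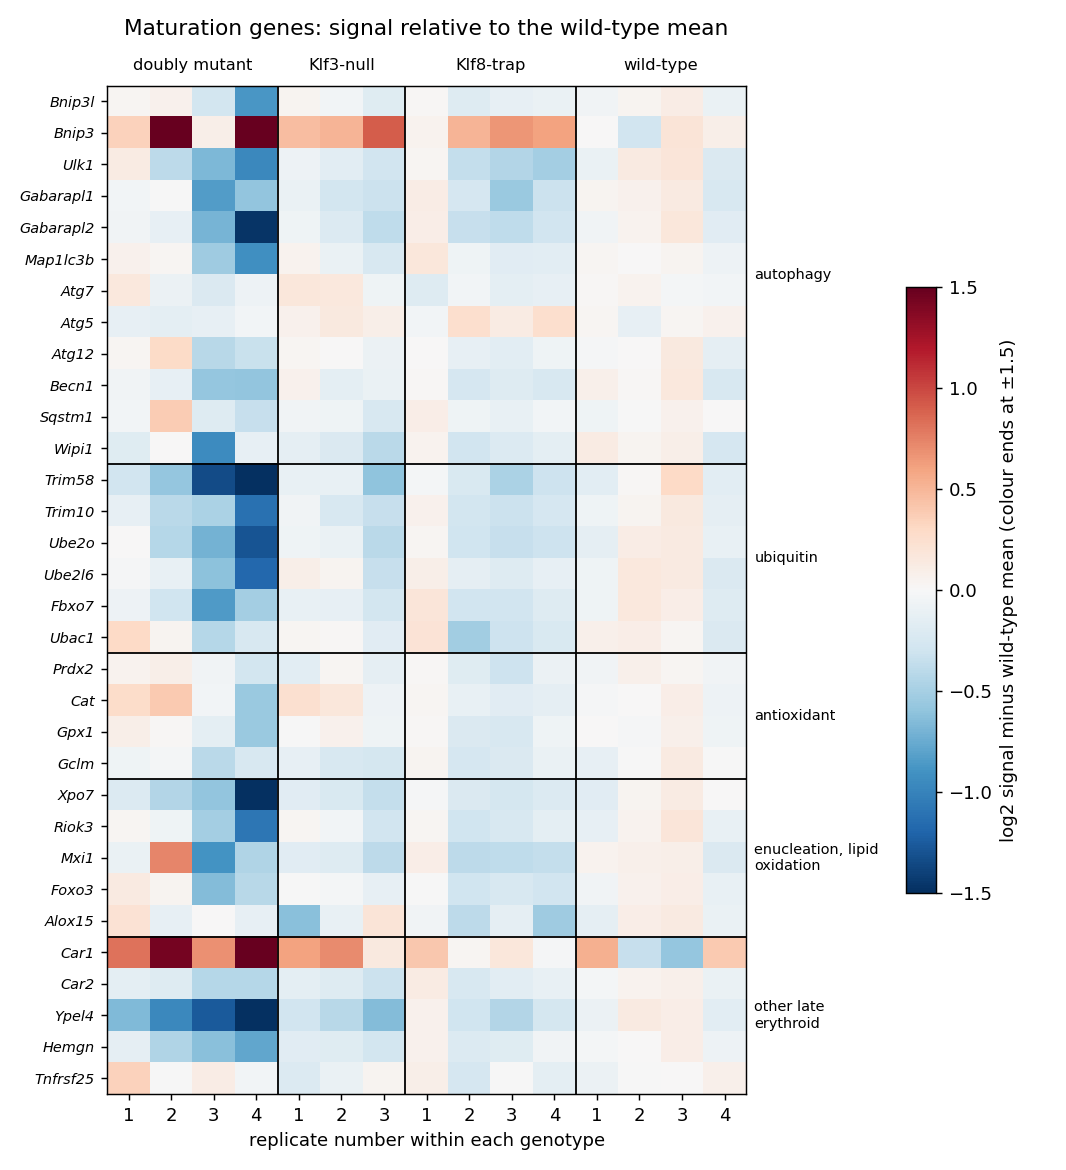
Log2 signal of each of the 32 measured maturation genes (rows, grouped by role) on each of the 15 arrays (columns, grouped by genotype), shown as the difference from the wild-type mean; blue is lower, red is higher and the colour scale ends at 1.5 in both directions. Doubly mutant replicates 3 and 4 are lower than wild type in most rows. Bnip3 is far higher only on doubly mutant replicates 2 and 4, and Car1 is higher on all doubly mutant arrays.

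Of these 4 genes, Trim58, Ypel4 and Hemgn have an entry in the RefSeq promoter table of assembly GRCm38.p6, and Car1 was not matched. Their 250 bases before the annotated start are shown 5′ to 3′ on the gene's strand because the mutated factors bind CACCC-type elements and the erythroid factor GATA1 binds GATA-type elements. Capitals mark CACCC or GATAA on either strand (GGGTG or TTATC when read on the opposite strand).
Trim58, chr11:58640215-58640464, + strand: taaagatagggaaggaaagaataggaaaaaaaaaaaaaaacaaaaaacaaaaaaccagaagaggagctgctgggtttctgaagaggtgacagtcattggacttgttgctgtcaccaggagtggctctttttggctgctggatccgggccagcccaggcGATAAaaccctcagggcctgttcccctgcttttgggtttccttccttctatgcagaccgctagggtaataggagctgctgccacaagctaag
Ypel4, chr2:84733954-84734203, + strand: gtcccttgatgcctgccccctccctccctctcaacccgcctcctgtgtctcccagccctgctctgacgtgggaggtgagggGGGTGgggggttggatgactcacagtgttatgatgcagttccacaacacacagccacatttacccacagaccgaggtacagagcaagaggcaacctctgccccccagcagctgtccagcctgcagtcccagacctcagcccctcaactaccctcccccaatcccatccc
Hemgn, chr4:46404184-46404433, - strand: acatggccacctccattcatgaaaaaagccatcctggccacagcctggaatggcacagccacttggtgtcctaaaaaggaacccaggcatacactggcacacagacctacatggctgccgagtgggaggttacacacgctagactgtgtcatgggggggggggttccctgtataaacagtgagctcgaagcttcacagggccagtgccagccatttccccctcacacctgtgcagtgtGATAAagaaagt
The Trim58 window held no CACCC and 1 GATAA, 92 bases before the start. The Ypel4 window held 1 CACCC, on the opposite strand 169 bases before the start, and no GATAA. The Hemgn window held no CACCC and 1 GATAA, 12 bases before the start, and no CACCC match overlapped a GATAA match in these windows. The longer element CCNCNCCC had 4 matches in Ypel4, 4 in Hemgn and 0 in Trim58, counted on both strands and with overlapping matches counted. The 4 matches in Hemgn were all on the opposite strand and overlapped within the same run of G. Promoters of 23 of the 32 measured members were matched, of which 13 (56.5%) held CACCC, 17 (73.9%) CCNCNCCC and 3 (13%) GATAA. Among all 27025 promoters of the table the shares were 51.3%, 45.6% and 23.0%. These matches describe letters in the windows and not bound sites.

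Among the genes of ubiquitin-dependent removal, Trim58 fell in doubly mutant cells. It encodes a ubiquitin ligase of late erythroblasts that directs the degradation of the motor protein dynein and promotes enucleation. Its log2 signals were 8.36, 8.07, 7.31 and 6.95 in the doubly mutant samples and 8.49, 8.67, 8.95 and 8.49 in the wild-type samples. All doubly mutant values lay below all wild-type values, with the female replicates 3 and 4 the lowest. The difference was -0.98 ± 0.24 on the log2 scale (SE), or 1.97-fold lower, with a limma adjusted p of 0.0367. Klf3-null cells gave 8.54, 8.54 and 8.05, and Klf8-trap cells 8.62, 8.42, 8.18 and 8.34, both overlapping wild type. The call was lost, with adjusted p values of 0.0501 to 0.127, without doubly mutant replicate 3 or 4, Klf3-null replicate 1 or 2, Klf8-trap replicate 2 or 4, or wild-type replicate 1, 2 or 3. With sex as a covariate the difference was -0.87 (adjusted p = 0.112), and between male arrays alone it was -0.44 (adjusted p = 0.201).

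The other 5 ubiquitin genes had lower means in doubly mutant than in wild-type cells, and none of them passed the test. Of the 6 ubiquitin genes 5 had an unadjusted p under 0.05 in the limma fit, beside 4179 of the 23410 clusters. The median difference of all 6 was -0.51, against -0.02 for all tested clusters. Ube2o, whose product is a ubiquitin-conjugating enzyme that marks ribosomal proteins in reticulocytes, averaged 11.65 ± 0.55 in doubly mutant and 12.26 ± 0.14 in wild-type cells (SD, n = 4 each; adjusted p = 0.116, limma). Trim10, a RING-finger gene of the erythroid lineage, averaged 12.33 ± 0.42 in doubly mutant and 12.86 ± 0.12 in wild-type cells (SD, n = 4 each; adjusted p = 0.0929, limma). Doubly mutant and wild-type arrays overlapped for both genes. Ube2l6, a conjugating enzyme of ubiquitin and ISG15, differed by -0.48 (adjusted p = 0.208), and the F-box adaptor gene Fbxo7 by -0.43 (adjusted p = 0.124). Ubac1, which encodes a subunit of a ubiquitin ligase complex, differed by -0.08, with a 95% interval of -0.42 to 0.26.

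Ypel4 had the smallest p of all members. The Yippee-like proteins are small zinc-binding proteins, and in human cells its relative YPEL5 is a subunit of the CTLH ubiquitin ligase. Ypel4 signals were 11.47, 11.17, 10.87 and 9.92 in doubly mutant cells, against 12.05, 12.27, 12.24 and 11.98 in wild-type cells. No doubly mutant array reached the lowest wild-type array, and both male doubly mutant arrays lay below all 4 wild-type arrays, which were male too. The difference was -1.28 ± 0.24 (SE), or 2.42-fold lower, with a limma adjusted p of 0.00628, and leaving out any single array kept it past the threshold. With sex as a covariate it was -1.19 (adjusted p = 0.0218), and between male arrays -0.81 (adjusted p = 0.00692). Klf3-null cells lay between, at 11.85, 11.72 and 11.48, all below the wild-type arrays and all above the doubly mutant ones. Klf8-trap cells gave 12.20, 11.84, 11.69 and 11.87 and overlapped wild type.

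Hemgn encodes hemogen, a nuclear protein of blood-forming cells. Its signals were 12.66, 12.34, 12.17 and 12.01 in doubly mutant cells and 12.77, 12.80, 12.89 and 12.72 in wild-type cells. The groups did not overlap, although doubly mutant replicate 1 was close to the lowest wild-type array. The difference was -0.50 ± 0.11 (SE), or 1.42-fold lower, with a limma adjusted p of 0.0234. Klf3-null cells gave 12.63, 12.61 and 12.52, which also lay below the wild-type arrays, and Klf8-trap cells 12.86, 12.59, 12.61 and 12.74. The call was lost, with adjusted p values of 0.0596 to 0.086, without doubly mutant replicate 3 or wild-type replicate 1, 2 or 3. With sex as a covariate the difference was -0.48 (adjusted p = 0.0684), and between male arrays it was -0.30 (adjusted p = 0.212).

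Car1 went the other way. Carbonic anhydrase I interconverts carbon dioxide and bicarbonate and is known as an abundant protein of adult red cells. Its signals were 10.53, 11.15, 10.40 and 11.28 in doubly mutant cells, against 10.25, 9.37, 9.13 and 10.11 in wild-type cells. Every doubly mutant array exceeded the highest wild-type array, and the wild-type group was itself split, with replicates 2 and 3 below replicates 1 and 4. The difference was 1.13 ± 0.25 (SE), or 2.18-fold higher, with a limma adjusted p of 0.0191. Klf3-null cells had 10.32, 10.42 and 9.86, and Klf8-trap cells 10.12, 9.74, 9.89 and 9.70. The call was lost, with adjusted p values of 0.057 to 0.0764, without doubly mutant replicate 2 or wild-type replicate 2 or 3. It was 1.05 (adjusted p = 0.0608) with sex as a covariate and 1.13 (adjusted p = 0.105) between male arrays.

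The related carbonic anhydrase gene Car2 did not follow Car1. It had 13.65, 13.60, 13.37 and 13.37 in doubly mutant cells and 13.77, 13.85, 13.87 and 13.70 in wild-type cells. The arrays did not overlap, but the difference of -0.30 ± 0.09 (SE) had a limma adjusted p of 0.0962. Tnfrsf25, which encodes death receptor 3, lay below the array medians in all groups (6.16 ± 0.17 in doubly mutant and 6.06 ± 0.07 in wild-type cells, SD, n = 4 each), so no fold is given for it.

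**Figure D2:**
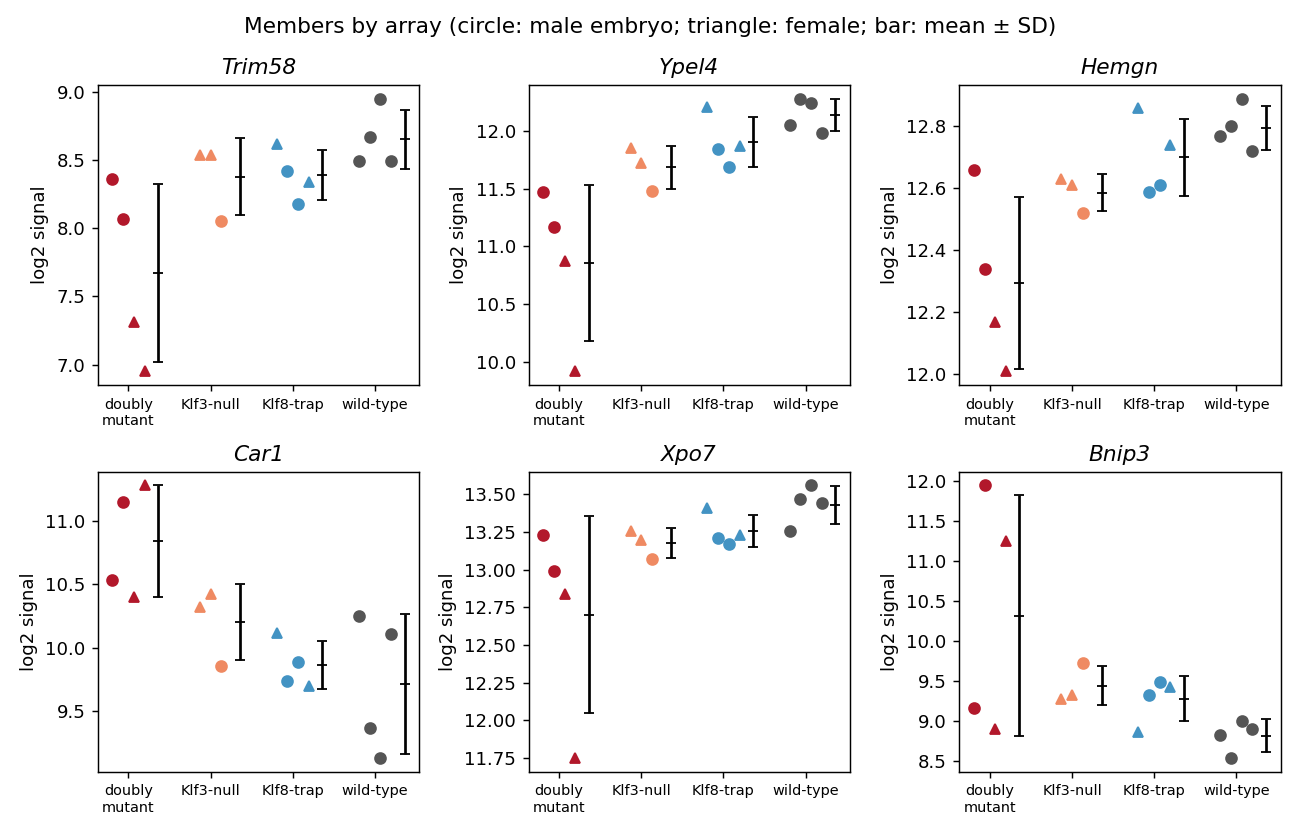
Log2 signal of 6 maturation genes on each array (points; circles male, triangles female) with the mean and SD of each genotype (bars), on axes that do not start at 0 and differ between panels. The doubly mutant arrays of Trim58, Ypel4 and Hemgn lie below the wild-type arrays and spread over a wider range, those of Car1 lie above them, and Bnip3 is high on 2 doubly mutant arrays, 1 male and 1 female.

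None of the 5 genes of nuclear condensation, enucleation and lipid oxidation passed the test in doubly mutant against wild-type cells, with a median difference of -0.22. Of these genes 2 had an unadjusted p under 0.05 in the limma fit, beside 4179 of the 23410 clusters. Xpo7, which encodes a nuclear export receptor needed for chromatin condensation and enucleation, had the smallest p of this role. Its signals were 13.23, 12.99, 12.84 and 11.75 in doubly mutant cells, against 13.26, 13.47, 13.56 and 13.44 in wild-type cells. The arrays did not overlap, replicate 4 lay far below the other doubly mutant arrays, and the difference of -0.73 ± 0.22 (SE) had an adjusted p of 0.0874. Xpo7 was one of 5 members with all doubly mutant arrays below all wild-type arrays, with Trim58, Car2, Ypel4 and Hemgn. Across all tested clusters 4.75% separated in this direction and 3.64% in the other, where Car1 was the 1 member.

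The kinase gene Riok3, which takes part in enucleation of mouse erythroblasts, averaged 11.12 ± 0.51 in doubly mutant and 11.52 ± 0.15 in wild-type cells (SD, n = 4 each; adjusted p = 0.264, limma). Foxo3 encodes a transcription factor that activates autophagy and antioxidant genes in maturing erythroid cells, and it averaged 11.12 ± 0.37 in doubly mutant and 11.35 ± 0.11 in wild-type cells (SD, n = 4 each; adjusted p = 0.447, limma). Neither gene separated the groups. The MYC antagonist gene Mxi1 ranged from 8.14 to 9.77 on the doubly mutant arrays, a wider range than the 8.81 to 9.12 of the wild-type arrays on both sides. Alox15, whose product oxidises organelle membranes in reticulocytes, lay below the array medians in all groups (5.91 ± 0.16 in doubly mutant and 5.92 ± 0.14 in wild-type cells, SD, n = 4 each).

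The 12 autophagy and mitophagy genes gave no call between doubly mutant and wild-type cells. At an unadjusted p under 0.05 in the limma fit there were 4 of them, beside 4179 of the 23410 clusters. In 11 of the 12 the doubly mutant mean was lower, with a median difference of -0.29, and the exception was Bnip3. Bnip3 encodes a mitochondrial outer membrane receptor for autophagosomes that is induced by low oxygen, and Bnip3l encodes its relative NIX, which reticulocytes need to remove mitochondria. Bnip3 had 9.16, 11.94, 8.90 and 11.24 in doubly mutant cells, against 8.82, 8.53, 9 and 8.90 in wild-type cells. Doubly mutant replicates 2 and 4 stood above every other array of the study, while replicates 1 and 3 were near the wild-type values. The difference of 1.5 ± 0.49 (SE) had an adjusted p of 0.117. Klf3-null cells had 9.27, 9.32 and 9.72, all above the wild-type arrays, and Klf8-trap cells 8.86, 9.32, 9.48 and 9.42. A second cluster annotated to Bnip3 gave a difference of 1.24 (adjusted p = 0.17).

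Bnip3l was at 13.38, 13.42, 13.07 and 12.48 in doubly mutant cells, against 13.30, 13.39, 13.46 and 13.25 in wild-type cells. Only replicates 3 and 4 were below the wild-type range, and the difference of -0.26 ± 0.16 (SE) had an adjusted p of 0.408. Ulk1, the kinase that starts autophagosome formation, averaged 8.88 ± 0.46 in doubly mutant and 9.35 ± 0.18 in wild-type cells (SD, n = 4 each; adjusted p = 0.184, limma). Of the ATG8-family genes, whose products coat the growing autophagosome and bind cargo receptors, Gabarapl2 differed by -0.58, Gabarapl1 by -0.37 and Map1lc3b by -0.34, with adjusted p values of 0.196, 0.284 and 0.312. Becn1, a subunit of the lipid kinase complex of autophagy, differed by -0.34 (adjusted p = 0.176), and Wipi1, which binds the lipid made by that kinase, by -0.31 (adjusted p = 0.346). The differences were smaller for the genes of the conjugation machinery that attaches ATG8 proteins to lipid. They were -0.06 for Atg7, -0.11 for Atg5 and -0.11 for Atg12, with 95% intervals of -0.24 to 0.13, -0.27 to 0.06 and -0.37 to 0.16. The cargo receptor gene Sqstm1 differed by -0.05, with an interval of -0.31 to 0.20.

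None of the 4 antioxidant genes passed the test between doubly mutant and wild-type cells, and 0 had an unadjusted p under 0.05 in the limma fit. Gclm, the modifier subunit of the enzyme that starts glutathione synthesis, had the smallest p, with 11.94, 11.97, 11.59 and 11.76 in doubly mutant cells and 11.88, 12, 12.13 and 11.99 in wild-type cells. The groups overlapped, and the difference of -0.18 ± 0.10 (SE) had an adjusted p of 0.333. The peroxide-removing genes differed by -0.05 for Prdx2, 0.02 for Cat and -0.15 for Gpx1, with 95% intervals of -0.24 to 0.15, -0.31 to 0.35 and -0.40 to 0.10. With that of Gclm, the intervals of the 4 genes lie between -0.40 and 0.35.

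**Figure D3:**
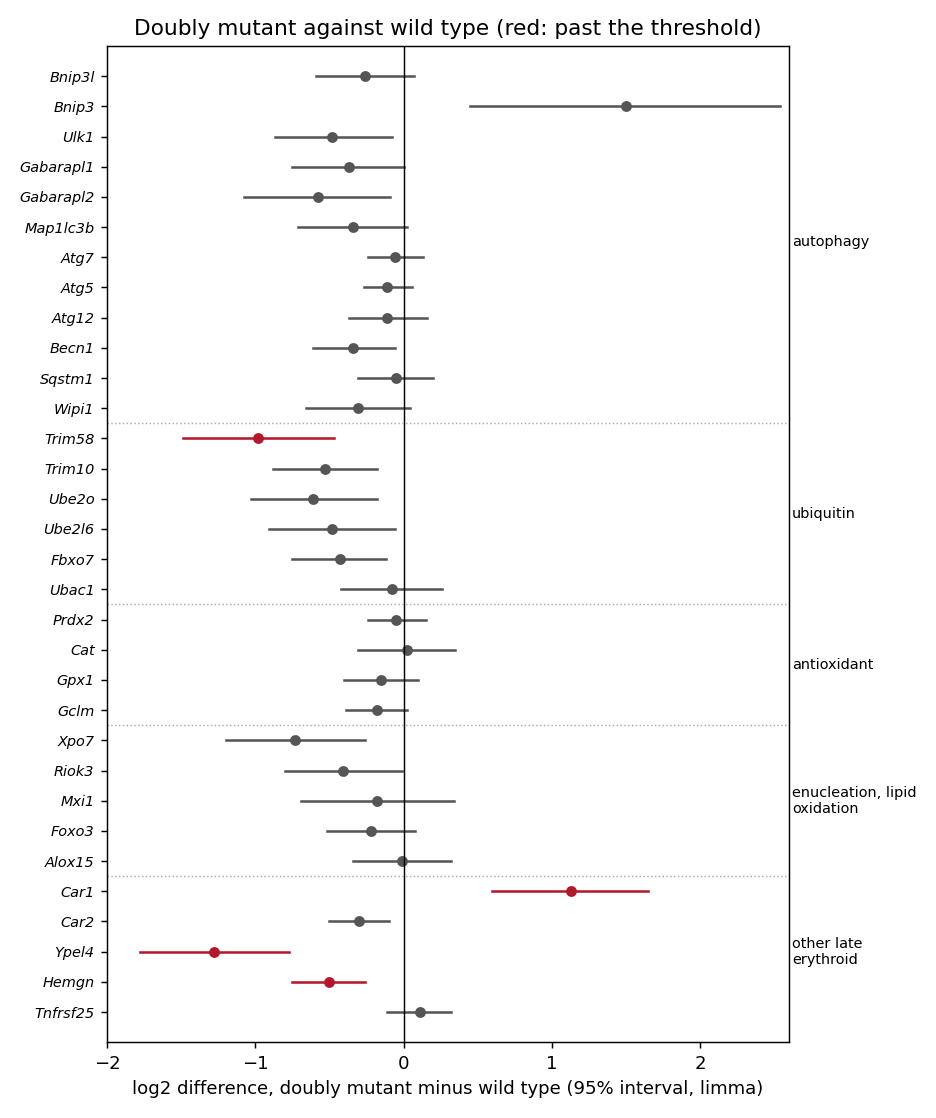
Log2 difference between doubly mutant and wild-type means for each of the 32 measured genes (points) with 95% intervals from the limma fit (lines); red marks an adjusted p under 0.05. Trim58, Ypel4 and Hemgn lie left of 0 and Car1 right of 0 in red, and Bnip3 has the widest interval, from 0.45 to 2.54.

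Members with more than 1 cluster gave the same sign from each. Bnip3l, Gabarapl2, Map1lc3b and Prdx2 differed by -0.28, -0.47, -0.39 and -0.20 in their second cluster, against -0.26, -0.58, -0.34 and -0.05 in the one used. Bnip3l, Gabarapl2 and Prdx2 have annotated pseudogenes, so that signal from near-identical copies makes their values uncertain. The 2 clusters of Bnip3 had mean signals of 9.46 (used) and 8.58. Which of them lies at the gene itself was not checked, so the Bnip3 values carry a like uncertainty.

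The doubly mutant arrays differed among themselves more than those of any other genotype. The doubly mutant group had the largest SD of the 4 groups in 28 of 32 members, against 46.1% of all tested clusters. The median SD of a member was 0.42 in doubly mutant, 0.12 in Klf3-null, 0.15 in Klf8-trap and 0.13 in wild-type cells, and over all tested clusters it was 0.17, 0.10, 0.15 and 0.12 in the same groups. The lowest doubly mutant array was replicate 4 for 19 members, replicate 3 for 12, replicate 2 for 1 and replicate 1 for 0, while over all tested clusters replicate 4 was the lowest in 21.6% and replicate 1 in 24.4%. Replicate 1 was the highest for 20 members, replicate 2 for 10 and replicate 4 for 2, against 31.8% of all tested clusters for replicate 1. With the spread estimated from doubly mutant and wild-type arrays alone, all 4 called members missed the threshold, with limma adjusted p values of 0.153 for Trim58, 0.0665 for Ypel4, 0.119 for Hemgn and 0.112 for Car1.

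The mean log2 signal of all 32 members was 10.81, 10.84, 10.33 and 10.25 on the doubly mutant arrays and 10.77, 10.82, 10.88 and 10.70 on the wild-type arrays. Doubly mutant replicates 1 and 2 thus lay within the wild-type range and replicates 3 and 4 below it. The means of the 6 ubiquitin genes were 11.30, 11.04, 10.60 and 10.33 on the doubly mutant and 11.27, 11.44, 11.48 and 11.17 on the wild-type arrays, and for these 3 of 4 doubly mutant arrays lay below the wild-type range. Replicates 3 and 4 are also the female doubly mutant embryos, and with no female wild-type array sex and sample cannot be told apart within that group. The female arrays of the other genotypes had member means of 10.76 and 10.74 in Klf3-null replicates 1 and 2 and 10.85 and 10.63 in Klf8-trap replicates 1 and 4, of which the last lies below the wild-type range. For Trim58 the female arrays gave 7.31 and 6.95 in doubly mutant cells, against 8.54 and 8.54 in Klf3-null and 8.62 and 8.34 in Klf8-trap cells.

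Markers of the erythroid lineage moved with the members. Their mean over 12 genes was 12.49, 12.28, 11.97 and 11.99 on the doubly mutant arrays, again lowest on replicates 3 and 4, against 12.33 to 12.54 on the wild-type arrays. The median difference of these markers was -0.30, and 1 of 12 passed the limma test, Klf1 at -0.41 (adjusted p = 0.0487). Gata1 differed by -0.43 (adjusted p = 0.138). Their part in the members' values was not tested.

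Markers of island macrophages, which surround and feed fetal liver erythroblasts, were lower in doubly mutant samples in a different order of arrays. Their mean over 15 genes was 7.24, 8.07, 8 and 8.90 on the doubly mutant arrays, against 9 to 9.30 on the wild-type arrays, and 6 of 15 fell, among them Adgre1 by 1.38 (adjusted p = 0.023, limma). Cd163 lay between 4.10 and 4.62 on every array, under the array medians. Replicate 4, with the lowest signals of 19 members, had the macrophage level nearest to wild type, and replicate 1, with the highest signals of 20 members, the lowest macrophage level. With the macrophage mean as a covariate, added after the data were seen, Trim58 (-1.52), Ypel4 (-1.97), Hemgn (-0.78) and Car1 (1.53) were past the threshold, with adjusted p values of 0.0317, 0.00295, 0.0216 and 0.0455. In that fit 9 members passed, Ulk1, Gabarapl2, Trim10, Ube2o and Xpo7 besides the 4, while 409 of the 23410 clusters passed, against 772 without the covariate. The macrophage means of the doubly mutant arrays all lay below those of the wild-type arrays, so covariate and genotype cannot be told apart. The part of macrophages in the members' values was not tested.

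Mean marker levels of the other cell types overlapped between doubly mutant and wild-type arrays, those of mesenchymal markers only at 8.69 in doubly mutant against 8.70 in wild-type cells. Early erythroid and progenitor markers lay at 7.18 to 7.29 on doubly mutant and 6.99 to 7.21 on wild-type arrays, with 1 of 10 higher and 2 lower. The gene that rose was Spi1, which encodes the myeloid and progenitor factor PU.1, at 10.17 in doubly mutant and 7.99 in wild-type cells (difference 2.18, limma adjusted p = 5.84e-06). Mecom and Cd48 fell, with wild-type means of 6.57 and 6.21 near the array medians.

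Megakaryocyte markers lay at 9.22 to 10.54 on doubly mutant and 9.62 to 9.88 on wild-type arrays, and granulocyte markers at 6.05 to 7.21 on doubly mutant and 6.45 to 6.76 on wild-type arrays. Hepatocyte markers lay at 11.79 to 12.91 on doubly mutant and 12.51 to 12.84 on wild-type arrays, and endothelial markers at 8.19 to 9.19 on doubly mutant and 8.50 to 9.55 on wild-type arrays. Doubly mutant replicate 1 had the lowest hepatocyte mean, 11.79 against 12.84 to 12.91 on the other doubly mutant arrays, and the highest granulocyte mean, 7.21 against 6.05 to 6.70. In none of these 4 lists did a gene pass the limma test, and 1 endothelial marker had an unadjusted p under 0.05. Mesenchymal markers lay at 8.69 to 9.11 on doubly mutant and 8.55 to 8.70 on wild-type arrays, and 2 of 8 rose, Col1a1 by 0.86 and Col1a2 by 0.58 (limma adjusted p of 0.00793 and 0.0245). The part of these cells in the members' values was not tested.

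**Figure D4:**
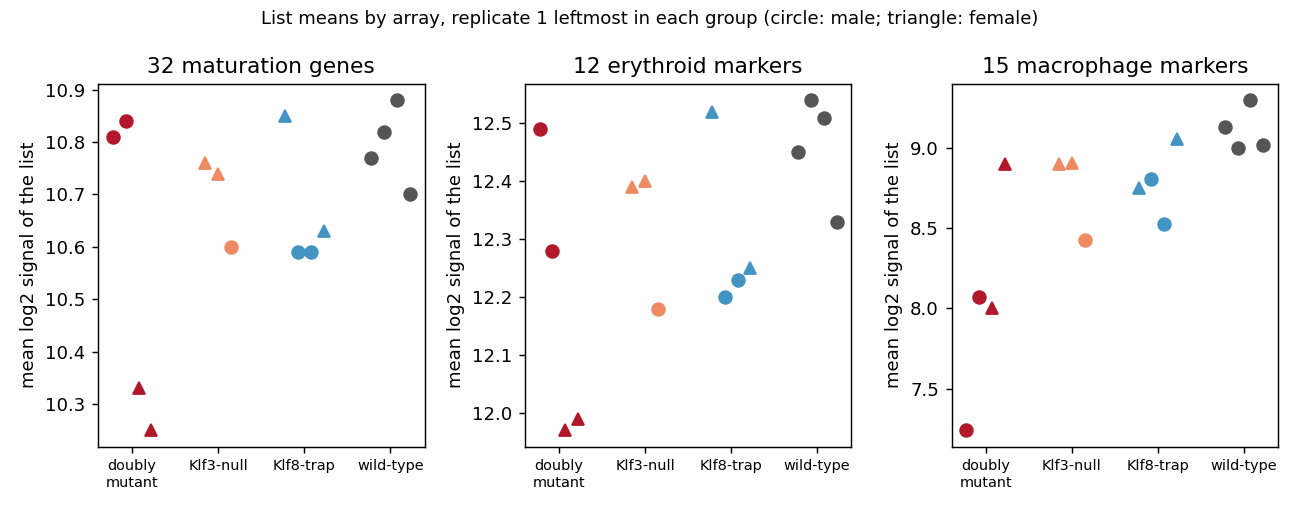
Mean log2 signal on each array of the 32 maturation genes (left), 12 erythroid markers (middle) and 15 macrophage markers (right), by genotype, with replicate 1 leftmost in each group (circles male, triangles female) and axes that do not start at 0. Doubly mutant replicates 3 and 4 are lowest in the first 2 panels, and doubly mutant replicate 1 is lowest in the macrophage panel.

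Neither single lesion changed a member past the threshold. In Klf3-null against wild-type cells 0 of 32 members passed in the limma fit, against 0.585% of all tested clusters. At an unadjusted p under 0.05 by limma there were 1 member (Car2) and 1832 of the 23410 clusters. The median difference was -0.11, and -0.01 over all tested clusters, and 27 of the 32 members had a lower mean, against 51.9% of all clusters. Of the 12 erythroid markers 10 had a lower mean too (median -0.14), and their part was not tested. The arrays separated for 2 members that were higher, Bnip3 and Atg5, and for 5 that were lower, Gclm, Xpo7, Car2, Ypel4 and Hemgn, where 8.79% and 5.7% of all tested clusters separated upward and downward. Ypel4 was lowest relative to wild type, with a difference of -0.45 and a 95% interval of -0.99 to 0.10. Xpo7, Car2, Ypel4 and Hemgn had all arrays below wild type in both Klf3-null and doubly mutant cells, but both comparisons use the same wild-type arrays.

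In Klf8-trap against wild-type cells 0 of 32 members passed, and 0% of the tested clusters passed. At an unadjusted p under 0.05 by limma there were 0 members and 3135 of the 23410 clusters. The median difference was -0.14, against -0.02 over all tested clusters, and 29 of the 32 members had a lower mean, against 53.8% of all clusters. Macrophage markers averaged 8.43 to 8.91 on Klf3-null and 8.53 to 9.06 on Klf8-trap arrays, against 9 to 9.30 on wild-type arrays, and their part in these differences was not tested.

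Other markers moved with this comparison too. All 12 erythroid markers had a lower mean in Klf8-trap than in wild-type cells, with a median difference of -0.15, and 0 passed the limma test or an unadjusted p of 0.05. All 8 hepatocyte markers had a higher mean in Klf8-trap cells, with a median difference of 0.61, 0 past the limma threshold and 7 at an unadjusted p under 0.05. All 5 megakaryocyte markers had a higher mean in Klf8-trap cells as well, with a median difference of 0.48 and 0 past the limma threshold. Granulocyte markers lay at 6.26 to 6.43 on Klf8-trap and 6.45 to 6.76 on wild-type arrays. Their part in the members' values was not tested.

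Klf8-trap replicate 1 stood apart from the other 3, with a member mean of 10.85 against 10.59, 10.59 and 10.63. Its erythroid marker mean was 12.52, against 12.20 to 12.25 on the other Klf8-trap arrays. Its means were 12.81 for hepatocyte markers against 13.27 to 13.41, 9.27 for megakaryocyte markers against 10.28 to 10.84, and 8.25 for endothelial markers against 9.15 to 9.26 on the other Klf8-trap arrays. The part of these cells in its member values was not tested. Across the group, the largest negative difference was that of Ulk1, at -0.32 with an interval of -0.71 to 0.07. Without this array and doubly mutant replicate 1, Ulk1 differed by -0.44 and was the 1 member past the threshold (limma adjusted p = 0.0403), beside 2917 of the 23410 clusters.

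Doubly mutant cells were also compared with each single mutant, using the same doubly mutant arrays as above. Against Klf8-trap cells Ypel4 fell by 1.04 ± 0.24 (SE; 2.06-fold lower, limma adjusted p = 0.0245) and Car1 rose by 0.98 ± 0.25 (SE; 1.97-fold higher, limma adjusted p = 0.0424). These 2 of 32 compare with 3.35% of all tested clusters, 1.87% lower and 1.48% higher. In the same comparison all 8 hepatocyte markers had a lower mean in doubly mutant cells (median -0.64), and 1 of them, Ahsg, passed. Macrophage markers had a median difference of -0.73 with 3 of 15 lower, and 2 of 8 mesenchymal markers, Col1a1 and Col1a2, were higher. All 5 megakaryocyte markers had a lower mean as well (median -0.77), with 0 past the limma threshold. The part of these cells in the members' values was not tested. The Ypel4 call was lost without doubly mutant replicate 3 or Klf8-trap replicate 2 or 4 (adjusted p of 0.0586 to 0.0635). The Car1 call was lost without doubly mutant replicate 2 or 4, Klf3-null replicate 1 or 2, or Klf8-trap replicate 2, 3 or 4 (adjusted p of 0.0556 to 0.123). Arrays separated downward for Ypel4 and Atg5 and upward for Car1, with 4.12% and 3.21% of all tested clusters separating downward and upward. Atg5 was at 7.75, 7.73, 7.75 and 7.83 in doubly mutant cells, against 7.83, 8.12, 7.99 and 8.12 in Klf8-trap cells, a difference of -0.25 ± 0.08 (SE, limma adjusted p = 0.0863). Its closest arrays, doubly mutant replicate 4 and Klf8-trap replicate 1, both read 7.83 after rounding, so they separated only before rounding. Hemgn differed by -0.41 (adjusted p = 0.0661) and Trim58 by -0.71 (adjusted p = 0.12). Without doubly mutant replicate 1 and Klf8-trap replicate 1, Ypel4, Car1, Atg5, Hemgn and Trim58 all passed, with adjusted p values of 0.00982 to 0.0421, beside 1245 of the 23410 clusters.

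Against Klf3-null cells 0 of 32 members passed in the limma fit, where 0.047% of all tested clusters did. By limma 5 members had an unadjusted p under 0.05, beside 3011 of the 23410 clusters. Ypel4 had the smallest p, with a difference of -0.83 ± 0.26 (SE) and an adjusted p of 0.189. Trim58 differed by -0.70 and Car1 by 0.64, with adjusted p values of 0.271 and 0.333.

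Averaged over the Klf8 genotype, loss of Klf3 was associated with a fall of Ypel4 by 0.75 ± 0.17 (SE; limma adjusted p = 0.0313) and a rise of Car1 by 0.73 ± 0.18 (SE; limma adjusted p = 0.0471). Of all tested clusters 2.38% passed in this comparison, 0.931% lower and 1.45% higher. The Ypel4 call was lost without doubly mutant replicate 3, any Klf3-null array, Klf8-trap replicate 1, 2 or 4, or wild-type replicate 1, 2 or 3 (adjusted p of 0.0556 to 0.108). The Car1 call was lost without doubly mutant replicate 2 or 4, Klf3-null replicate 1 or 2, Klf8-trap replicate 2, 3 or 4, or wild-type replicate 2 or 3 (adjusted p of 0.0729 to 0.142). With sex as a covariate the adjusted p was 0.0911 for Ypel4 and 0.126 for Car1.

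The interaction of both genotypes measures whether the doubly mutant value departs from the sum of the single differences. It passed for 0 of 32 members in the limma fit and for 0.00427% of all tested clusters. At an unadjusted p under 0.05 by limma there were 3378 of the 23410 clusters and 1 member. That member was Atg5, at -0.36 ± 0.11 (SE, limma adjusted p = 0.208). For Ypel4 the interaction was -0.60, with a 95% interval of -1.34 to 0.15. That interval includes both 0 and a departure as large as the difference between doubly mutant and wild-type cells.

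Other genes of the same pathways were counted beside the members in doubly mutant against wild-type cells. The shares of all tested clusters to set beside each pathway list were 1.52% higher and 1.78% lower. Of 40 further autophagy genes 1 rose and 2 fell, with a median difference of -0.14. Atg4b and Atg4a encode proteases that process ATG8 proteins, and they moved in opposite directions. Atg4b averaged 10.65 in doubly mutant and 10.15 in wild-type cells (difference 0.51, limma adjusted p = 0.0207), and Atg4a averaged 10.38 in doubly mutant and 11.39 in wild-type cells (difference -1.01, limma adjusted p = 0.0313). Atg101, a subunit of the ULK1 complex, averaged 7.64 in doubly mutant and 8.06 in wild-type cells (difference -0.42, limma adjusted p = 0.0243).

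Of the 12 CTLH ubiquitin ligase genes, which encode a ligase complex needed in erythroid maturation, 0 rose and 1 fell, with a median difference of -0.26. The gene that fell was Ypel5, the relative of Ypel4, at 8.94 in doubly mutant and 9.92 in wild-type cells (difference -0.97, limma adjusted p = 0.00428). Of 24 further antioxidant genes 0 rose and 1 fell, with a median of -0.07. Glrx, which encodes glutaredoxin, averaged 9.12 in doubly mutant and 10.45 in wild-type cells (difference -1.34, limma adjusted p = 0.00209).

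Of 18 further genes of enucleation and nuclear condensation 1 rose and 3 fell, with a median of -0.02. Lmna, which encodes the nuclear lamins A and C, averaged 10.40 in doubly mutant and 9.57 in wild-type cells (difference 0.83, limma adjusted p = 6.79e-04), and it was the only gene of the 4 pathway lists past the threshold in Klf3-null against wild-type cells (difference 0.64, adjusted p = 0.0275). The GTPase gene Rac2 differed by -0.91 (adjusted p = 0.0279), with overlapping arrays. The histone H4 methyltransferase gene Kmt5a differed by -0.30 (adjusted p = 0.0337) and the clathrin heavy chain gene Cltc by -0.27 (adjusted p = 0.0319).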

How the data were processed

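Each array was deposited as 1 log2 signal per transcript cluster, and the authors' log2 values were used unchanged. The submitters' processing notes list RMA and Partek without versions. The sources used here name no genome build for the array annotation, and coordinates are given only for RefSeq promoters (GRCm38.p6). Of 35556 clusters, 23410 with at least 1 gene symbol were tested, 1621 of them with several symbols. A member was represented by its highest-mean cluster with 1 symbol, and no fold is given where a group mean lay below the array medians.

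The model in limma 3.58.1 (lmFit and eBayes, R 4.3.3) held 1 mean for each genotype and used all 15 arrays. Tests were two-sided, with Benjamini-Hochberg adjustment over the 23410 clusters and a threshold of 0.05. Every adjusted p is from limma. Precision is limited by how many arrays there are, and the median SE between doubly mutant and wild-type cells was 0.11 over all tested clusters. Members differed in this, with an SE of 0.08 for Atg5, 0.24 for Trim58 and 0.49 for Bnip3. The fit was tested on simulated data.

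Members and lists were chosen with earlier results of these data known. Values on every array are given for members past the threshold in a comparison and for the smallest p of each role, and pathway genes are named where past the threshold. Bnip3l, Car2 and Atg5 are shown in full beyond that rule, after their values were seen.

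Same-numbered arrays were checked for pairing by correlating deviations from the group means over all tested clusters. All 4 pairs exceeded 0.1 only between doubly mutant and Klf8-trap arrays (0.114 to 0.534), which comes from the data and not the labels. Alternatives covered the spread estimate, clusters tested, normalization, array weights, replicate block, sex and single arrays left out. Without both arrays that stand apart, male embryos only and a macrophage covariate were added after seeing the data.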

Additional observations from a re-analysis of the deposited data

Results flagged for a closer look

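In 4 of 96 groups of 4 arrays examined, the gap between the highest or lowest array and its neighbour took up an unusually large share of the group's range. In independent groups chance would give about 1 in 20. These groups share arrays and most of the flags fell on Klf8-trap replicate 1, so the count is not weighed against chance. Klf8-trap replicate 1 had 12.29 for Ube2o, against 11.91 to 11.96 on the other Klf8-trap arrays (gap 0.858 of the range). It had 9.13 for Mxi1, against 8.64 to 8.67 (0.93 of the range), and 11.34 for Foxo3, against 11.05 to 11.10 (0.836 of the range). Wild-type replicate 4 had 8.81 for Mxi1, against 9.09 to 9.12 on the other wild-type arrays (0.891 of the range).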

How the results depend on the processing

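Of 27 alternatives none turned the sign of a called member, and 284 of 5970 member differences, none of them called, changed sign. Between doubly mutant and wild-type cells 4 members passed, and the count was 0 with the groups of the comparison alone, 7 with array weights, 1 with sex as a covariate, 1 in male embryos only, 13 without both arrays that stand apart and 9 with the macrophage mean as a covariate. In these fits 295, 1098, 633, 744, 2260 and 409 of the 23410 clusters passed, against 772 in the reported fit. It was 1 to 11 without single arrays, with 11 without doubly mutant replicate 1 (1389 clusters), 1 without wild-type replicate 2 or 3 and 2 without wild-type replicate 1. Against Klf8-trap cells 2 passed, and 0 with these groups alone, 1 with all clusters tested, 1 with sex as a covariate, 5 without both arrays that stand apart (1245 clusters) and 0 to 4 without single arrays (4 without doubly mutant replicate 1, 0 without Klf8-trap replicate 2 or 4). For the averaged Klf3 effect 2 passed, and 0 with all clusters tested, 0 with sex as a covariate, 1 in male embryos only, 4 with the macrophage covariate and 0 to 4 without single arrays (4 without doubly mutant replicate 1, 0 without Klf3-null replicate 1 or 2, Klf8-trap replicate 2 or 4, or wild-type replicate 2 or 3). For Klf8-trap against wild-type cells 0 passed, and 3 with array weights (4081 of 23410 clusters) and 1 without both arrays that stand apart (2917 clusters). For the interaction 0 passed, and 1 with array weights (1183 clusters) and 0 to 1 without single arrays (1 without Klf8-trap replicate 1). Klf3-null against wild-type and doubly mutant against Klf3-null cells gave 0 under every alternative run. The fit to the groups of the comparison alone gives no value for the averaged effect and the interaction, which use all groups. The causes of these shifts were not tested. With the replicate block the counts were 5 between doubly mutant and wild-type, 2 between doubly mutant and Klf8-trap and 3 for the averaged effect, and the pairing changed no call between doubly mutant and Klf8-trap cells.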
